A study of Mus musculus with 7 samples.

Results

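Genes of glucose uptake, glycolysis and the hypoxia response were examined in microglia, the resident macrophages of the brain, from mice with and without B2m. The set was fixed by gene symbol and held 32 genes, namely 3 membrane transporters of glucose and lactate, 18 glycolytic enzymes and 11 hypoxia response genes. Of these, 30 were among the 19505 genes named on the array, with Ero1l found under its current symbol Ero1a, and Gpi1 and Eno1 were not analysed here. B2m knockout microglia (genotype 5xFAD;B2m-/-) gave 4 arrays and B2m wildtype microglia (genotype 5xFAD;B2m+/+) gave 3. Both groups carried the 5xFAD transgenes, which are expressed in neurons and give amyloid plaques, on the C57BL/6 strain. No label gave age, sex or treatment, and the groups differed by the B2m genotype alone as far as the labels say. B2m encodes beta-2 microglobulin, the small subunit that MHC class I needs to reach the cell surface. Cells were sorted as viable, CD45 positive and CD11b positive, a gate that other myeloid cells of the brain can also enter. The study asked how the expression profile of these cells differs between the genotypes.

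Glycolysis splits glucose into pyruvate in the cytosol, and cells that export the product as lactate can draw energy from it without oxygen. The hypoxia-inducible factor Hif1a is marked for destruction by prolyl hydroxylases when oxygen is present. When oxygen is scarce it accumulates and raises glucose transporters, glycolytic enzymes and genes for vessel growth, pH control and mitochondrial turnover. Macrophages, microglia included, also raise glycolysis when they are activated.

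Levels are the authors' RMA values on a log2 scale, and every difference is knockout minus wildtype on that scale. B2m itself (Entrez Gene 12010) was 10.41 ± 0.13 (SD, n = 4) in knockout and 13.41 ± 0.017 (SD, n = 3) in wildtype arrays, without overlap. All 13 microglial markers on the array, among them Cx3cr1, P2ry12 and Tmem119, lay above the background line in all 7 arrays; this line is the level that 95% of an array's negative control rows stay under, 9.35 to 9.55. Sets of markers for other cells differed between arrays. The 12 neutrophil markers on the array averaged 9.53, 10.14, 10.84 and 11.38 in knockout replicates 1 to 4, against 9.82, 10.62 and 9.64 in wildtype replicates 1 to 3. The 23 endothelial and mural markers averaged 9.06, 8.89, 8.98 and 8.91 in knockout arrays, against 9.51, 9.53 and 8.89 in wildtype arrays. The 10 border-associated macrophage markers averaged 9.03, 8.89, 9.04 and 9.02 in knockout arrays, against 8.88, 8.99 and 9.34 in wildtype arrays. Of these markers, 4 lay below the background line in all 7 arrays. Knockout replicate 4 was thus highest in neutrophil markers, and wildtype replicates 1 and 2 were highest in endothelial and mural markers. Wildtype replicate 3 was highest in border-associated macrophage markers. Astrocyte, oligodendrocyte, T and NK cell and B cell markers lay below the background line in all 7 arrays. In sorted bulk RNA, fewer cells of a type and less RNA per cell cannot be told apart.

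No member of the set passed the test between genotypes. Of the 30 genes on the array, 28 were tested, and 0 passed at a limma adjusted p under 0.05, where 0.05% of all 10004 tested genes did (0.02% higher and 0.03% lower in knockout). At an unadjusted p under 0.05 limma counted 1 member higher in knockout arrays, Pgk1, where the share of all genes was 8.39%. It counted 2 members lower, Adm and Vegfa, where the share of all genes was 3.54%. The lowest adjusted p of any member was 0.320, for Adm. Differences lay above 0 in 16 members and below 0 in 12, with a median of 0.033, against a median of -0.006 over all tested genes. The genotypes did not overlap in 2 members with knockout above, against 7.1% of all genes, and in 1 with knockout below, against 3.8%. Hk1 and Eno2 fell outside the test because they lay under the array median of named genes (7.92 to 7.99) in all 7 arrays. The tested member nearest that limit was Slc2a3, above it in 2 knockout and 2 wildtype arrays.

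**Figure D1:**
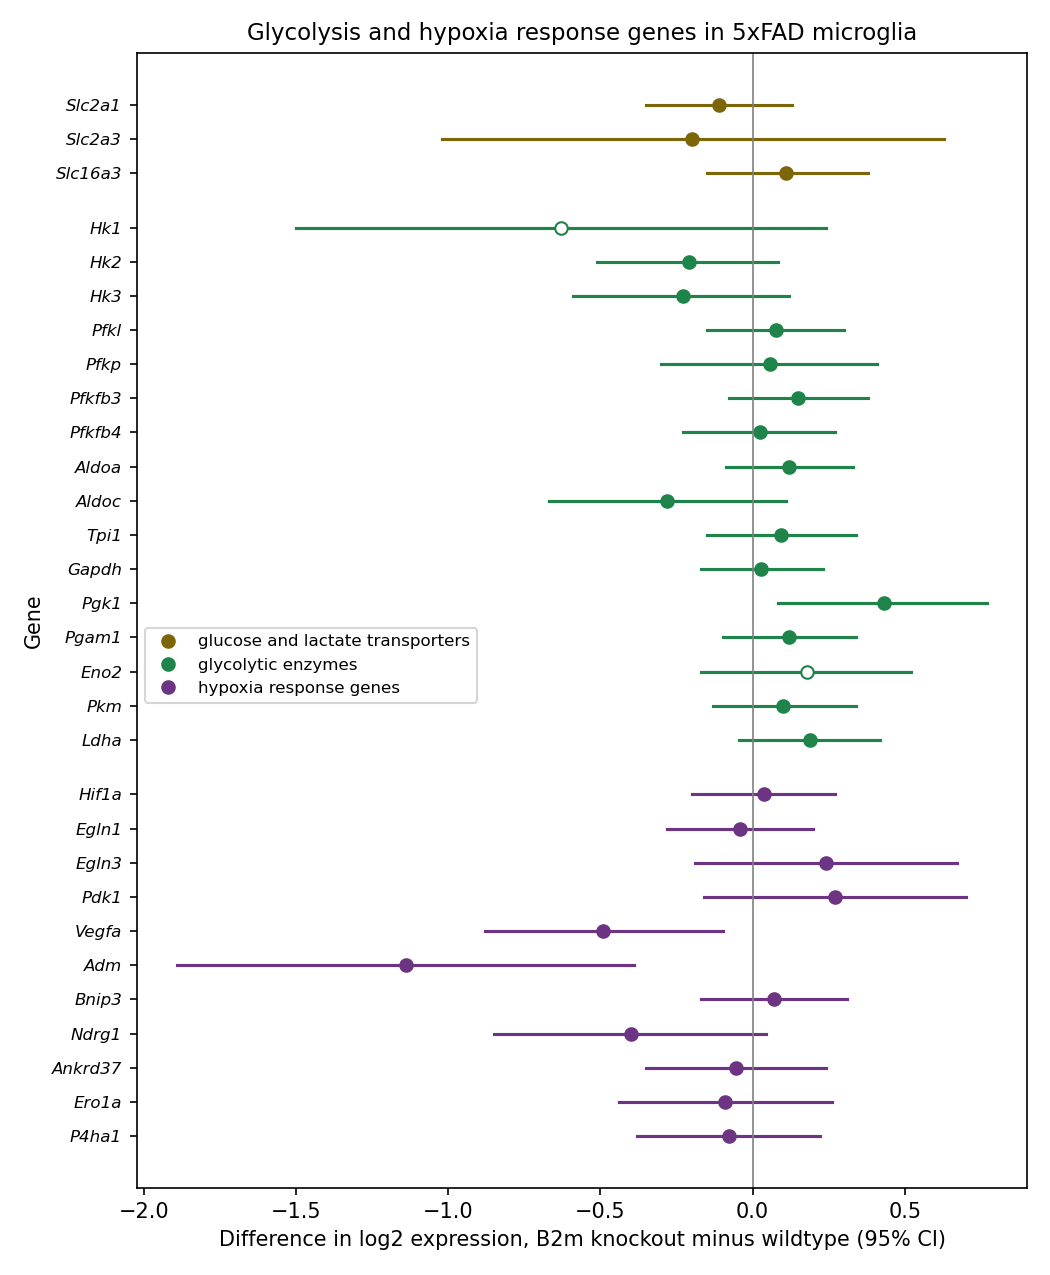
Difference in log2 expression, knockout minus wildtype, for the 30 members on the array, one gene per row and grouped by role, with points for the limma estimate and lines for its 95% confidence interval. Open points mark Hk1 and Eno2, which were fitted without the filter on dim genes; the interval lies wholly above 0 for Pgk1 and wholly below 0 for Vegfa and Adm before correction for the number of genes tested.

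Glucose enters through the facilitative transporters Slc2a1 (GLUT1) and Slc2a3 (GLUT3), and lactate leaves through Slc16a3 (MCT4). Slc2a1 (Entrez Gene 20525) was 12.87, 12.83, 12.73 and 12.70 in knockout arrays and 12.91, 13.04 and 12.73 in wildtype arrays. Its difference was -0.11 (SE 0.11, 95% interval -0.35 to 0.13, limma adjusted p = 0.713), so the groups overlapped and the interval spans 0. Slc16a3 (Entrez Gene 80879) was 10.41 ± 0.12 (SD, n = 4) in knockout and 10.29 ± 0.20 (SD, n = 3) in wildtype arrays, a difference of 0.11 (SE 0.12, limma adjusted p = 0.747). Neither gene passed. Slc2a1 differed by -0.0368 without wildtype replicate 2 and by 0.0542 without wildtype replicates 1 and 2, and Slc16a3 by 0.00414 without wildtype replicate 2 and by 0.20 without wildtype replicate 1. The arrays highest in Slc2a1 were wildtype replicates 2 and 1 and knockout replicate 1. Their endothelial and mural marker means, 9.53, 9.51 and 9.06, were also the highest. Knockout replicate 2 lay above knockout replicate 3 in Slc2a1 but below it in that mean (8.89 against 8.98). The part of endothelial RNA in the Slc2a1 values was not tested.

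Slc2a3, the high-affinity glucose transporter of neurons and of several blood leukocytes, varied most of the 3 between arrays. It read 6.91, 7.70, 8.06 and 8.97 in knockout replicates 1 to 4 and 8.26, 8.25 and 7.82 in wildtype replicates 1 to 3. Both the lowest and the highest value were knockout arrays, and the wildtype values lay between them. The difference was -0.20 (SE 0.37, limma adjusted p = 0.869), and the SD over all 7 arrays, 0.63, exceeded that of 99.4% of tested genes. All 7 values lay below the background line. Without knockout replicate 1 the difference was 0.13. Among knockout arrays Slc2a3 stood in the same order as the mean neutrophil marker level given above, while in wildtype arrays it did not, since wildtype replicates 1 and 2 had nearly equal Slc2a3 and unequal neutrophil levels. The neutrophil list had 11 of 12 tested members above 0. The log2 of its summed linear level ran from 14.13 to 15.42 in knockout and from 14.19 to 14.76 in wildtype arrays. Of its 12 markers, 5 lay above the background line in all 7 arrays and all 12 in at least 1 array. The 11 monocyte markers on the array stood in the same knockout order, at 8.71, 9.04, 9.13 and 9.83 in replicates 1 to 4. They averaged 8.69, 9.04 and 8.53 in wildtype replicates 1 to 3, and 5 of them lay below the background line in all 7 arrays. The part of neutrophil or monocyte RNA in the Slc2a3 values was not tested.

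**Figure D2:**
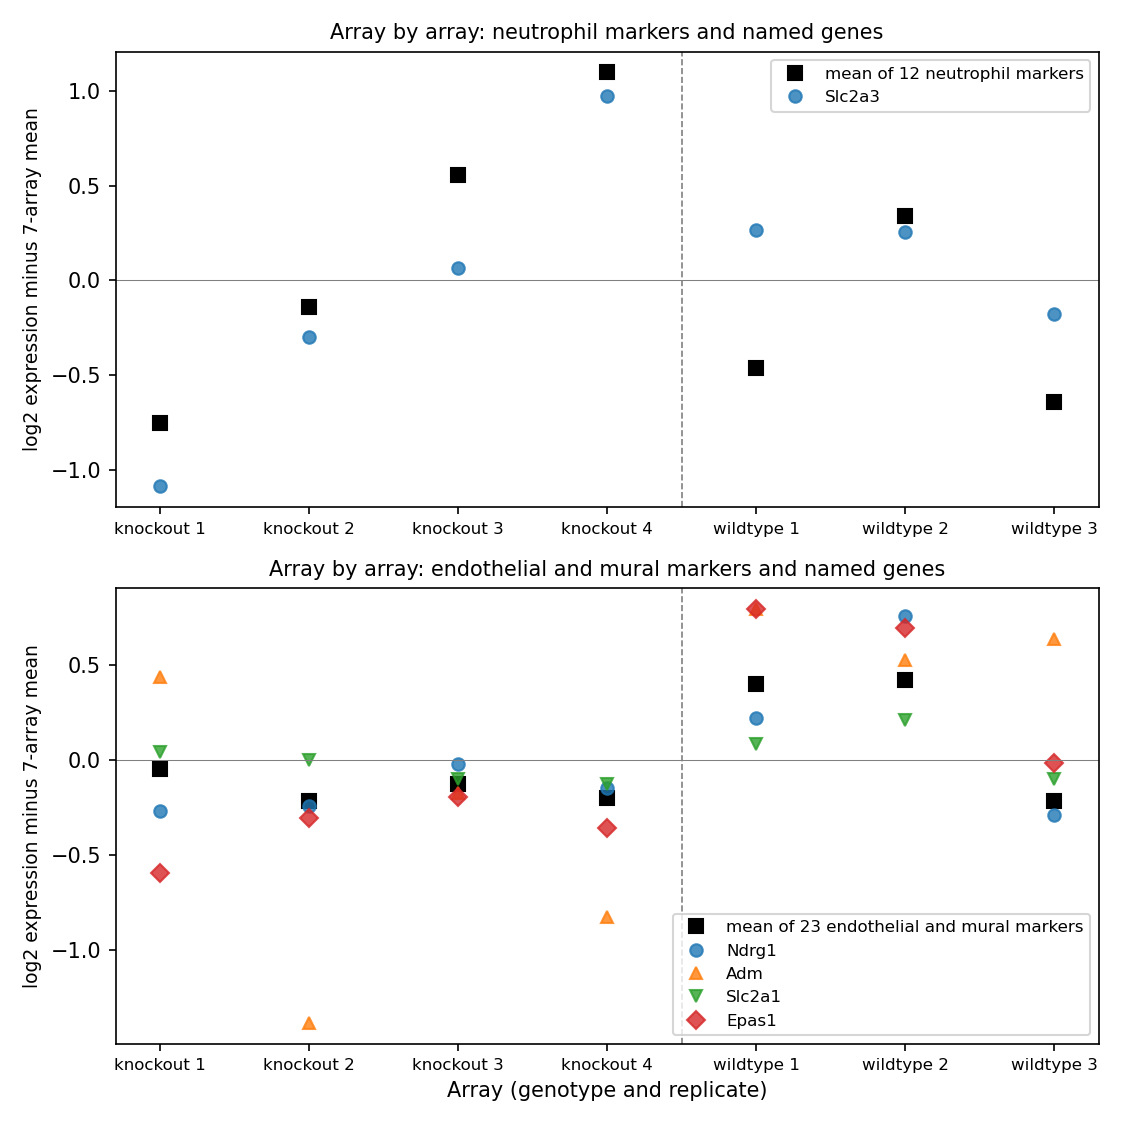
Log2 expression minus its 7-array mean for each array, knockout arrays on the left and wildtype arrays on the right. The upper panel sets Slc2a3 beside the mean of the 12 neutrophil markers, both lowest in knockout replicate 1 and highest in knockout replicate 4; the lower panel sets Ndrg1, Adm, Slc2a1 and Epas1 beside the mean of the 23 endothelial and mural markers, which was highest in wildtype replicates 1 and 2.

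Hexokinases trap glucose in the cell as glucose 6-phosphate. Hk2 (Entrez Gene 15277), the inducible form that can dock on mitochondria, was 11.89 ± 0.11 (SD, n = 4) in knockout arrays, and 12.41, 12.03 and 11.87 in the 3 wildtype arrays. The difference was -0.21 (SE 0.13, limma adjusted p = 0.552), with wildtype replicate 1 the highest of all arrays. Hk3 (Entrez Gene 212032), the hexokinase of myeloid cells, was 9.64 ± 0.31 (SD, n = 4) in knockout and 9.88 ± 0.13 (SD, n = 3) in wildtype arrays, a difference of -0.23 (SE 0.16, limma adjusted p = 0.588). Hk1, the housekeeping form of brain and erythrocytes, read 6.02, 6.06, 5.79 and 7.45 in knockout arrays and 7.56, 6.19 and 7.15 in wildtype arrays. These values were all dim and varied widely within both genotypes. In a fit without the filter on dim genes the Hk1 difference was -0.63 (SE 0.39, limma adjusted p = 0.658). All 3 hexokinase differences were negative, and none passed. Single arrays weighed heavily, with Hk2 at -0.0617 without wildtype replicate 1 and Hk3 at -0.0895 without knockout replicate 2.

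The next committed step is that of the phosphofructokinases, which are driven by fructose 2,6-bisphosphate from the Pfkfb enzymes. Pfkl and Pfkp, the liver and platelet forms of phosphofructokinase, differed by 0.076 (SE 0.10) and 0.056 (SE 0.16). Pfkfb3 (Entrez Gene 170768), the inducible kinase form that raises fructose 2,6-bisphosphate, was 11.12, 11.13, 11.07 and 11.36 in knockout arrays and 11.06, 11.03 and 10.96 in wildtype arrays. Knockout replicate 4 stood above the rest, and the lowest knockout and highest wildtype arrays were almost equal. Its difference was 0.15 (SE 0.10, limma adjusted p = 0.590), and 0.0883 without knockout replicate 4. Pfkfb4, a related enzyme, differed by 0.024 (SE 0.11). Pfkfb3 and the pyruvate dehydrogenase kinase gene Pdk1 lie on chromosome 2, as B2m does, but 415 and 176 tested genes away from it of 770 on that chromosome.

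The lower part of the pathway, from aldolase to lactate dehydrogenase, held mostly small positive differences. Aldoa, the main aldolase outside liver and brain, was 11.72 ± 0.054 (SD, n = 4) in knockout and 11.59 ± 0.080 (SD, n = 3) in wildtype arrays. Tpi1, which interconverts the triose phosphates, Pgam1, the mutase that moves the phosphate of phosphoglycerate, and Pkm, which makes pyruvate, differed by 0.092 (SE 0.11), 0.12 (SE 0.098) and 0.10 (SE 0.11). Gapdh, the triose phosphate dehydrogenase, was the steadiest member, at 12.17 ± 0.048 (SD, n = 4) in knockout and 12.14 ± 0.048 (SD, n = 3) in wildtype arrays, with a 95% interval of the difference from -0.17 to 0.23. Its SD over all 7 arrays exceeded that of 0.49% of tested genes. Aldoc, the aldolase of astrocytes and neurons, had a difference of -0.28 (SE 0.17, limma adjusted p = 0.552), with all 7 values below the background line. It was -0.12 without wildtype replicate 3 and -0.60 without wildtype replicates 1 and 2. The dim neuronal enolase Eno2 differed by 0.18 (SE 0.16) without the filter on dim genes.

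Pgk1 (Entrez Gene 18655), which makes the first ATP of glycolysis and is encoded on the X chromosome, had the largest positive difference of the 30 genes. It read 8.44, 8.32, 8.67 and 8.31 in knockout arrays and 8.14, 7.64 and 8.24 in wildtype arrays. All 4 knockout arrays lay above all 3 wildtype arrays, by a narrow margin between knockout replicate 4 and wildtype replicate 3. The difference was 0.43 (SE 0.15, 95% interval 0.085 to 0.77), with an unadjusted p of 0.0191 and a limma adjusted p of 0.349. Every value lay below the background line, so no fold is given. The difference was 0.24 without wildtype replicate 2, the lowest array. Ldha (Entrez Gene 16828), which turns pyruvate into lactate, was 10.66, 10.59, 10.60 and 10.60 in knockout arrays and 10.36, 10.29 and 10.62 in wildtype arrays. Its knockout values were nearly equal while wildtype replicate 3 stood with them, and the difference was 0.19 (SE 0.10, limma adjusted p = 0.509). It was 0.12 without wildtype replicate 2 and -0.00415 without wildtype replicates 1 and 2.

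Of the 14 tested enzymes, 11 had differences above 0 and 3 below, where 48.6% of all tested genes lay above 0. Their median was 0.084, and 0 passed in limma. The median was 0.045 without wildtype replicate 2, with 10 enzymes above 0 and 4 below. Their differences lay between -0.28 and 0.43. The 3 below 0 were Hk2, Hk3 and Aldoc. Pfkp, Pfkfb4 and Pgk1 among the positive differences, and Aldoc among the negative ones, had values below the background line in all 7 arrays. With wildtype replicates 1 and 2 both left out, which kept 1 wildtype array, the median was 0.007, with 7 enzymes above 0 and 7 below.

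Hif1a, the oxygen-regulated subunit of the hypoxia-inducible factor, and the prolyl hydroxylases that mark it head the hypoxia response genes. Hif1a (Entrez Gene 15251) was 11.28 ± 0.090 (SD, n = 4) in knockout and 11.24 ± 0.15 (SD, n = 3) in wildtype arrays, a difference of 0.038 with a 95% interval from -0.20 to 0.27. The array reads its mRNA, whereas oxygen acts on the protein. Egln1 (PHD2), the main oxygen sensor, differed by -0.042 (SE 0.11), with an interval from -0.28 to 0.20. Egln3 (PHD3, Entrez Gene 112407), a hydroxylase that is itself raised by hypoxia, was 10.43, 10.11, 10.24 and 9.49 in knockout arrays and 9.98, 9.70 and 9.79 in wildtype arrays. Knockout replicates 1 to 3 lay above every wildtype array, and knockout replicate 4 below every one. The difference was 0.24 (SE 0.19, limma adjusted p = 0.654), with 0.12 without knockout replicate 1 (limma adjusted p = 0.857) and 0.43 without knockout replicate 4 (limma adjusted p = 0.220).

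Secreted products of the hypoxia response had the largest negative differences among the 28 tested members. Adm (Entrez Gene 11535) encodes adrenomedullin, a peptide hormone that widens vessels and tightens endothelial barriers. It read 9.89, 8.07, 9.28 and 8.63 in knockout arrays and 10.25, 9.98 and 10.09 in wildtype arrays. All 4 knockout arrays lay below all 3 wildtype arrays, with knockout replicate 1 the nearest to them. The spread was wide among knockout arrays, with an SD of 0.79 in knockout and 0.14 in wildtype arrays. The difference was -1.14 (SE 0.34, 95% interval -1.89 to -0.39), with an unadjusted p of 0.00679 and a limma adjusted p of 0.320. It kept its sign in all 18 alternatives, from -1.45 to -0.84, and passed in none. Only knockout replicate 1 lay above the background line in that genotype, against all 3 wildtype arrays. The SD of Adm over all 7 arrays, 0.83, exceeded that of 99.8% of tested genes.

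Vegfa (Entrez Gene 22339), the growth factor that drives vessel sprouting, was 11.37, 10.86, 10.90 and 10.93 in knockout arrays and 11.85, 11.14 and 11.53 in wildtype arrays. Knockout replicates 2 to 4 lay below every wildtype array, while knockout replicate 1 exceeded wildtype replicate 2. The difference was -0.49 (SE 0.18, 95% interval -0.88 to -0.098), with an unadjusted p of 0.0192 and a limma adjusted p of 0.349. That is a linear ratio of 1.40 in favour of wildtype, with an interval from 1.07 to 1.84. Without wildtype replicate 1 the difference was -0.32 (limma adjusted p = 0.717). In both genes replicate 1 held the highest value of its genotype.

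**Figure D3:**
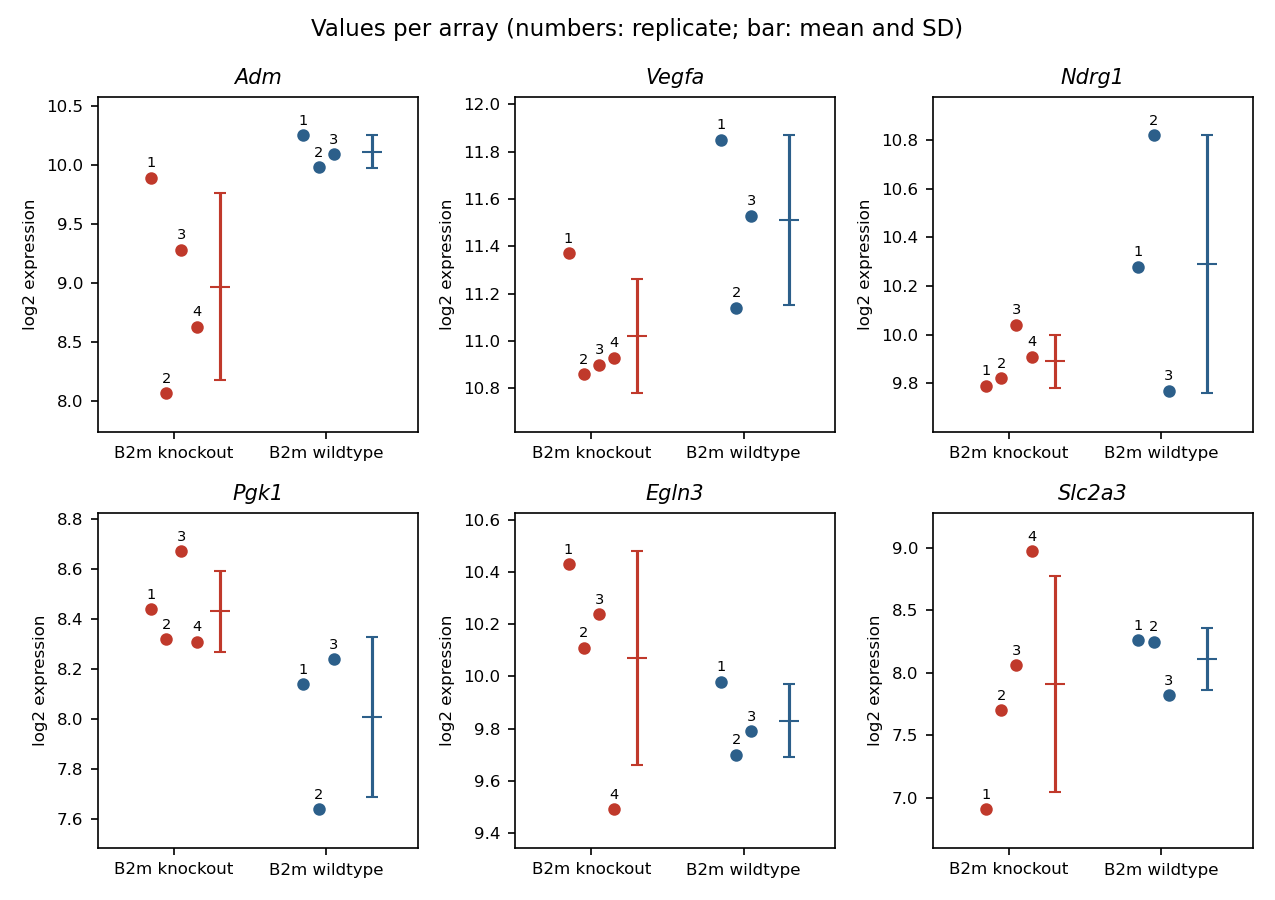
Log2 expression of Adm, Vegfa, Ndrg1, Pgk1, Egln3 and Slc2a3 in each array, with knockout arrays left and wildtype arrays right; digits give the replicate, and the bar beside the points gives the mean and SD (n = 4 knockout, n = 3 wildtype). The genotypes are apart for Adm and Pgk1 and overlap for the other 4 genes, and knockout arrays spread widely for Adm, Egln3 and Slc2a3.

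Ndrg1 (Entrez Gene 17988), a stress-responsive gene raised by hypoxia, was highest in wildtype replicate 2. It was 9.79, 9.82, 10.04 and 9.91 in knockout arrays and 10.28, 10.82 and 9.77 in wildtype arrays, so wildtype replicate 3 was the lowest of all 7. The difference was -0.40 (SE 0.20, limma adjusted p = 0.469), -0.66 without wildtype replicate 3 (limma adjusted p = 0.124), -0.14 without wildtype replicate 2, and 0.12 without wildtype replicates 1 and 2. Wildtype replicates 1 and 2, the highest arrays in Ndrg1, were also those highest in endothelial and mural markers. Among knockout arrays the match did not hold. Knockout replicate 1 had the highest marker mean of that genotype (9.06) and its lowest Ndrg1 (9.79). Of that marker list 0 of 20 tested genes had differences above 0, and the log2 of its summed linear level ran from 14.03 to 14.19 in knockout and from 13.98 to 14.70 in wildtype arrays. In this list 12 of 23 markers, Tek and Emcn among them, lay below the background line in all 7 arrays, and Cldn5, Flt1 and Ly6c1 above it. The Adm difference without wildtype replicates 1 and 2 was -1.12. The part of endothelial RNA in the Ndrg1 and Adm values was not tested.

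The remaining hypoxia response genes had differences within the spread between arrays. Bnip3, which tags mitochondria for autophagy, was 10.04 ± 0.16 (SD, n = 4) in knockout and 9.97 ± 0.0092 (SD, n = 3) in wildtype arrays. Ankrd37, a short ankyrin-repeat gene and known target of hypoxia-inducible factor, was 9.43 ± 0.23 (SD, n = 4) in knockout and 9.48 ± 0.098 (SD, n = 3) in wildtype arrays. Knockout replicate 4 was the lowest of all 7 arrays for both, as it was for Egln3. P4ha1, the collagen prolyl hydroxylase subunit, and Ero1a, the disulfide-forming oxidase of the endoplasmic reticulum, differed by -0.077 (SE 0.13) and -0.090 (SE 0.16). Pdk1, the pyruvate dehydrogenase kinase, differed by 0.27 (SE 0.19, limma adjusted p = 0.603), by 0.14 without wildtype replicate 2 and by 0.47 without wildtype replicate 1. Ero1a and Pdk1 lay below the background line in all 7 arrays. Over the 11 hypoxia response genes, 4 lay above 0 and 7 below, with a median of -0.054 and a mean of -0.152. The median was -0.003 without knockout replicate 4 and -0.019 without wildtype replicate 1, each with 5 above 0 and 6 below. It was 0.061 without wildtype replicates 1 and 2, and 0.055 without knockout replicate 4 and wildtype replicate 1, each with 7 above 0 and 4 below.

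Hypoxia-inducible factor binds a short core, ACGTG or GCGTG, that reads CACGT or CACGC on the other strand. These letters were searched in the 250 bases before each annotated gene start in RefSeq sequence (build GRCm38.p6), counting overlapping matches and counting CACGTG once for each strand. Promoters were held for 28 of the 30 members, and 26 of them, or 92.9%, had at least 1 match before any start, against 59.7% of the 8157 tested genes with a promoter. The share was not adjusted for base composition, and a match in the letters is not a binding site. The set was chosen to hold genes of the hypoxia response, so its higher share is not a result of these arrays. The promoters of 4 members are shown because they carry matches to either core beside different measured differences. Adm, at -1.14, held 2 matches at chr7:110627407-110627656 on the plus strand. Pgk1, at 0.43, held 2 at chrX:106186850-106187099 on the plus strand. Bnip3, at 0.070, held 5 at chr7:138909507-138909756 on the minus strand, and Ankrd37, at -0.054, held 4 at chr8:45999851-46000100 on the minus strand. Each is printed 5′ to 3′ in the direction of the gene and ends at the base before its start, with core matches in capitals.
Adm: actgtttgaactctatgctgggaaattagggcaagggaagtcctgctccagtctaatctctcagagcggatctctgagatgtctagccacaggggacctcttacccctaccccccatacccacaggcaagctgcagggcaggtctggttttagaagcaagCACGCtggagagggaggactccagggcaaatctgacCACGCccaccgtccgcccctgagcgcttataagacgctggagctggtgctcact
Pgk1: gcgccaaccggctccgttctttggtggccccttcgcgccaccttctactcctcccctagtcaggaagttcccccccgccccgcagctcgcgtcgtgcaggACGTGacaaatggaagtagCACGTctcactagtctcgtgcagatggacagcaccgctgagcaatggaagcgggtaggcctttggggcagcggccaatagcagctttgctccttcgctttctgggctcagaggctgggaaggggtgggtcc
Bnip3: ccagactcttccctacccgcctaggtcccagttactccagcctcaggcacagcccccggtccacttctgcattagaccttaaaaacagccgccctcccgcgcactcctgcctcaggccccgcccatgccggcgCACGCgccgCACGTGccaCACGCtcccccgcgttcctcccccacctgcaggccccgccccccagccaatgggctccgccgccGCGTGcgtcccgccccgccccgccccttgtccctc
Ankrd37: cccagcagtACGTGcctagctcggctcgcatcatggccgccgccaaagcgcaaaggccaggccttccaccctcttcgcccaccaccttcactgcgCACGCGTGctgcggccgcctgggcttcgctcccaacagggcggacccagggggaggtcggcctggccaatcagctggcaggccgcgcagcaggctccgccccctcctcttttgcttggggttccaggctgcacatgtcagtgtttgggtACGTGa
Members with 4 or more matches, Bnip3, Ankrd37 and Ldha, were 3 of 28, or 10.7%, against 5.65% of the tested genes, and their differences were between -0.054 and 0.19.

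Set against each other, the glycolytic enzymes had a mean difference of 0.047 and the hypoxia response genes one of -0.152, and the genotypes overlapped in both. Adm carried much of the second value, since the other 10 hypoxia response genes had a mean difference of -0.053. Each gene was centred on the midpoint of its genotype means and then averaged per array. The mean of the 14 tested enzymes was 0.059, -0.042, 0.085 and -0.007 in knockout arrays and -0.001, -0.106 and 0.037 in wildtype arrays. That of the 11 hypoxia response genes was 0.101, -0.096, -0.074 and -0.235 in knockout arrays and 0.222, 0.017 and -0.011 in wildtype arrays. Enzymes minus hypoxia response genes gave -0.042, 0.054, 0.159 and 0.228 in knockout arrays and -0.223, -0.123 and 0.047 in wildtype arrays, a difference between genotype means of 0.199. The knockout mean was 0.100 ± 0.119 (SD, n = 4) and the wildtype mean -0.100 ± 0.137 (SD, n = 3), with wildtype replicate 3 inside the knockout range. Without wildtype replicates 1 and 2 the difference was 0.052, and with Adm left out, a choice made after seeing the data, it was 0.10. No test was made of this score, because the genes were chosen with results of these arrays known.

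**Figure D4:**
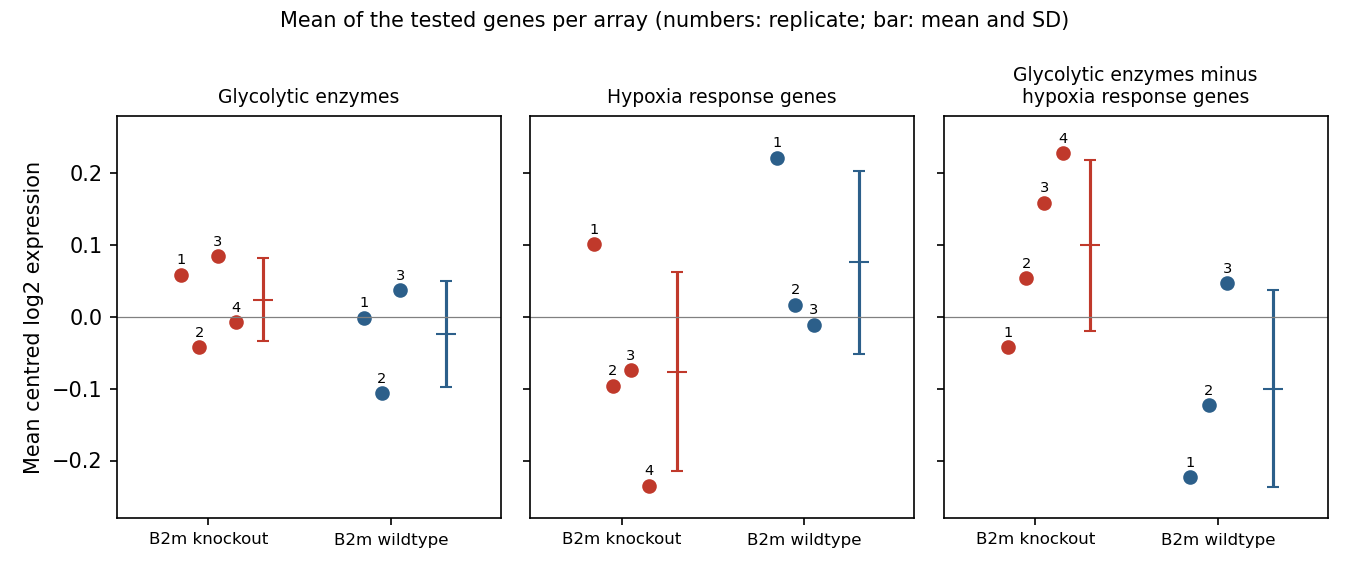
Mean centred log2 expression per array of the 14 tested glycolytic enzymes (left), the 11 hypoxia response genes (middle) and their difference (right), with knockout arrays left and wildtype arrays right in each panel; digits give the replicate and bars the mean and SD (n = 4 knockout, n = 3 wildtype). The genotypes overlap in all 3 panels, and knockout replicate 4 and wildtype replicate 1 lie at the ends of the middle and right panels.

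Other genes of the same pathways were counted from wider lists. Among 21 tested further genes of glycolysis, pyruvate handling and transport, 0 passed in limma. Before adjustment 2 had a p under 0.05 with knockout higher and 1 with knockout lower, where 8.39% and 3.54% of all tested genes did, and the median was -0.014. Slc16a1 (MCT1), a lactate and ketone carrier, was 9.61, 9.67, 9.55 and 9.50 in knockout arrays and 10.05, 9.96 and 9.87 in wildtype arrays, without overlap. Its difference was -0.38 (SE 0.097, limma adjusted p = 0.315). The difference was -0.29 without wildtype replicates 1 and 2. Mpc1, a subunit of the mitochondrial pyruvate carrier, and Adpgk, an ADP-dependent glucokinase, differed by 0.39 (SE 0.16) and 0.35 (SE 0.15), and the muscle phosphofructokinase Pfkm by -0.27 (SE 0.13). Mpc1 differed by 0.24 without wildtype replicate 2 and by 0.00633 without wildtype replicates 1 and 2, and Adpgk by 0.22 without knockout replicate 4.

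Of 14 tested pentose phosphate and glycogen genes, 0 passed in limma, and before adjustment 1 gene had a p under 0.05 with knockout higher (8.39% of all tested genes) and 1 with knockout lower (3.54%). The median was 0.009. Pygm, the muscle glycogen phosphorylase, differed by -0.62 (SE 0.15, limma adjusted p = 0.315) and Pgm2, a phosphopentomutase, by 0.42 (SE 0.14, limma adjusted p = 0.339). Both lay below the background line in all 7 arrays, as did Adpgk and Pfkm. Taldo1 and Pgd of the pentose phosphate pathway differed by 0.18 (SE 0.11) and 0.24 (SE 0.15), and by 0.11 and 0.12 without knockout replicate 4. Pgd read 9.95, 10.25, 10.30 and 10.65 in knockout replicates 1 to 4, the order of the mean neutrophil marker level. In wildtype replicates 1 to 3 it read 10.06, 9.99 and 10.10 and did not follow that order. The part of neutrophil or monocyte RNA in the Pgd values was not tested.

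Of 23 tested further hypoxia response genes, 0 passed in limma. Before adjustment a p under 0.05 was found for 3 with knockout higher and 2 with knockout lower, beside 8.39% and 3.54% of all tested genes, and the median was 0.022. Epas1 (Entrez Gene 13819) encodes HIF-2alpha, a paralogue of Hif1a. It was 8.33, 8.62, 8.73 and 8.57 in knockout arrays and 9.72, 9.62 and 8.91 in wildtype arrays. The arrays high in Epas1 were again wildtype replicates 1 and 2, those highest in endothelial and mural markers. All 3 wildtype arrays lay above all 4 knockout arrays in Epas1. Wildtype replicate 3 was among them, though its marker mean (8.89) was not above that of any knockout array. Knockout replicate 1 had the lowest Epas1 of all 7 arrays and the highest marker mean of the knockout arrays (9.06). The difference in Epas1 was -0.86 (SE 0.19, limma adjusted p = 0.265), and -0.35 without wildtype replicates 1 and 2. Without wildtype replicate 3 it was -1.11 and passed (limma adjusted p = 0.0186). Epas1 lay above the background line only in wildtype replicates 1 and 2. The part of endothelial RNA in its values was not tested. Fam162a and Higd1a, hypoxia-induced proteins of the mitochondrion, differed by 0.38 (SE 0.12) and 0.32 (SE 0.13), and Hilpda, which blocks lipid droplet breakdown, by 0.33 (SE 0.14). Hilpda lay above the background line only in knockout replicate 3. Without wildtype replicate 1 Higd1a differed by 0.18, and without wildtype replicates 1 and 2 the differences were 0.24 for Fam162a, 0.0726 for Higd1a and 0.52 for Hilpda. The limma adjusted p of these 3 genes lay between 0.340 and 0.400. The nuclear genes of oxidative phosphorylation stood beside them, with 63 of 65 tested above 0, array means of 10.84, 10.87, 10.81 and 10.70 in knockout and 10.29, 10.52 and 10.68 in wildtype arrays, and a median difference of 0.329. The part of that class in the values of Fam162a, Higd1a and Mpc1 was not tested.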

How the data were processed

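Microglia were profiled on 7 expression arrays with a whole-transcript labelling kit. The authors deposited one log2 value per probe set and array, from RMA run in version 1.1 of Affymetrix Expression Console according to the submitters' processing notes; RMA equalizes arrays and so removes any shift shared by all genes. The genome build behind the array design is not given in the sources used here. Of 28846 rows, 19572 had 1 gene symbol, 0 had several and 9274 had none listed, and all 19572 matched the RefSeq gene table of GRCm38.p6 by Entrez identifier. The brightest probe set was kept for each of 55 genes with several. Rows with a neg tag, 5222 in all, served as a rough guide to background.

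Genotypes came from the labels. A gene was tested when above the array median of named genes in at least 3 of 7 arrays. The genotype difference came from lmFit and eBayes of limma 3.58.1 under R 4.3.3, with Benjamini-Hochberg adjustment over all tested genes and a threshold of 0.05, and the script was first tested on simulated data. Alternatives covered the filter, the prior, array weights, scaling, probe sets, gene span and left-out arrays. All members and 4 genes with the smallest unadjusted p from each further pathway list were named, and marker genes as examples. The members and lists were chosen with earlier results of these data known. Whether each array stands for its own animal is not labelled, so the p-values reflect only how these 7 samples vary, which may be technical, and their number limits the precision.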

Additional observations from a re-analysis of the deposited data

Results flagged for a closer look

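In 4 of 42 genes examined, 1 knockout array lay apart from the other 3, judged by Dixon's gap, the distance from the extreme array to its neighbour divided by the range of the 4. Chance flags about 5% of such groups. The gap was 0.839 for Hk1, where knockout replicate 4 (7.45) lay above 5.79 to 6.06. It was 0.914 for Pgam1, where knockout replicate 4 (11.38) lay below 11.51 to 11.53. It was 0.905 for Ldha, where knockout replicate 1 (10.66) lay above 10.59 to 10.60, and 0.856 for Vegfa, where knockout replicate 1 (11.37) lay above 10.86 to 10.93.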

How the results depend on the processing

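Across 18 alternatives no member passed the limma threshold, and the lowest adjusted p was 0.124, for Ndrg1 without wildtype replicate 3. Of the 28 tested members 13 kept their direction throughout, Adm, Vegfa and Pgk1 among them. Over all genes 5 were called, and leaving out 1 array at a time gave 4 to 26, the highest (7 higher and 19 lower) without wildtype replicate 3, when Epas1 also passed. With wildtype replicates 1 and 2 left out, the median difference was 0.007 for enzymes, 0.068 for transporters and 0.061 for hypoxia response genes (0.055 without knockout replicate 4 and wildtype replicate 1), and enzymes minus hypoxia response genes was 0.052. Without knockout replicate 1 the transporter median was 0.135, with -0.193 to 0.135 over all single arrays left out. The sign turned without wildtype replicates 1 and 2 for Slc2a1 (0.0542), Slc2a3 (0.0946), Hk2 (0.0185), Pfkl (-0.00823), Pfkp (-0.10), Pfkfb4 (-0.0397), Pkm (-0.0141), Ldha (-0.00415), Egln1 (0.0441), Ndrg1 (0.12) and Ero1a (0.16). It turned without knockout replicate 4 and wildtype replicate 1 for Pfkp (-0.0498), Ankrd37 (0.00495), Ero1a (0.16) and P4ha1 (0.0551), and under repeated quantile normalization for Gapdh (-0.013) and Hif1a (-0.0224). With 1 array left out at a time, differences that turned ran from -0.55 to 0.13 for Slc2a3, from -0.0467 to 0.2 for Pfkp, from -0.0423 to 0.0868 for Pfkfb4, from -0.0261 to 0.12 for Hif1a, from -0.0877 to 0.0181 for Egln1, from -0.11 to 0.0543 for Ankrd37, from -0.21 to 0.12 for Ero1a. The cause was not tested. Leaving out wildtype replicates 1 and 2 keeps 1 wildtype array, assumed to vary like the knockout arrays. That array was the highest of all 7 in border-associated macrophage markers. No paired analysis was possible because replicate numbers follow deposit order. Values below the negative control percentile may understate differences, and 7 arrays limit precision.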
